A study of Mus musculus with 16 samples.

Results

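The genes described here are 32 genes of the unfolded protein response and the integrated stress response, the pair of programmes by which cells react to unfolded proteins in the endoplasmic reticulum (ER) and to shortage of amino acids. They were taken by symbol from the count table, which holds 40840 genes, and all 32 were found there and passed the filter on low counts that left 14484 genes for testing. By role they comprise 16 ER chaperones and folding enzymes, 5 genes of ER degradation, 4 genes of stress sensing (the 3 sensor genes and Xbp1), and 7 genes made up of Atf4 and its targets.

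Liver RNA came from male C57BL/6J mice of 12 to 16 weeks, either wild type (WT) or lacking both cryptochromes in every cell (Cry1-/-Cry2-/-, labelled CryDKO). Cryptochromes are repressors of the circadian clock. Every group had been kept on 12 h of light a day for 3 weeks and then in constant darkness from 3 days before the drug, and every group received the DNA-crosslinking platinum drug oxaliplatin at 12 mg/kg into the peritoneum. Dosing took place at circadian time 8 (CT8) or circadian time 16 (CT16) on 3 days, although the series text also speaks of 1 dose. No untreated animals were analysed here, so each difference is one between treated livers, and how long after the drug livers were taken is not stated in the labels. The 4 groups (WT_CT8, WT_CT16, CryDKO_CT8 and CryDKO_CT16) held 4 libraries each, named here by the running number of their column. Nothing in the labels says that a group's libraries are from different animals, so p-values measure the spread between these libraries, which may be technical.

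Proteins that enter the secretory route fold inside the ER with the help of chaperones such as BiP, the product of Hspa5. When unfolded proteins build up, 3 membrane sensors respond: ATF6, which is cut to release a transcription factor; IRE1 (gene Ern1), which splices the Xbp1 mRNA; and PERK (gene Eif2ak3), which phosphorylates the translation factor eIF2 alpha. The first pair mainly raise transcription of chaperones and of the degradation machinery, whereas PERK and other eIF2 alpha kinases raise translation of ATF4, which drives genes for amino acid supply and for stress-induced death. Hepatocytes secrete most plasma proteins and carry a large ER. Splicing of Xbp1, cutting of ATF6 and phosphorylation of eIF2 alpha are not seen in counts per gene.

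Libraries held 18083916 to 29934138 counted reads. Cry2 was lower in the libraries labelled CryDKO (23.1 to 33.3 CPM) than in WT (39.9 to 58.9 CPM), while Cry1 was higher in them (20.5 to 29.0 against 5.14 to 15.9 CPM). CPM are counts per 1000000 reads of a library after TMM scaling (the trimmed mean method of edgeR). Gene-level counts cannot reveal a deleted exon, and Cry1 went against a plain loss of transcript, so CryDKO stands for the label throughout, and each direction by genotype rests on it. The 10 most abundant genes took 12.9% to 14.6% of reads in WT_CT8, 14.3% to 17.8% in WT_CT16 and 19.4% to 23.0% in the libraries labelled CryDKO. WT_CT16 library 8 stood apart from its group: its scaling factor was 1.20, against 0.921 to 0.955 in the other 3, and it was the lowest of its group for 27 of the 32 genes. Its factor lay within the WT_CT8 range of 1.13 to 1.24, as did its share of the 10 most abundant genes (14.3%). Its sum over the 32 genes, 5138 CPM, also lay within that of WT_CT8 (4606 to 5318 CPM). Its sum over 5 clock genes, 264 CPM, instead lay above WT_CT8 (178 to 249 CPM) and within WT_CT16 (251 to 296 CPM). Its macrophage marker sum, 101 CPM, was the highest of WT_CT16 and lay above WT_CT8 (60.1 to 82.5 CPM). The cause of these likenesses and differences was not tested. Hepatocyte markers summed to at least 38008 CPM in every library. Of the markers of other cell types, Mpo (neutrophils) and the pancreas genes Cpa1, Prss2, Pnlip and Amy2a5 were at 0 in all groups. The whole neutrophil list still summed to 1.20 to 11.1 CPM and the whole pancreas list to 4.94 to 11.1 CPM. The plasma and B cell markers summed to 1.62 to 15.6 CPM. In bulk tissue, fewer cells of a type and less RNA per cell cannot be told apart.

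The ER stress response element (ERSE) is the promoter sequence through which ATF6, together with the factor NF-Y, acts on chaperone genes. It was searched as CCAAT and CCACG with 9 bases between them, on both strands, in RefSeq windows (GRCm38.p6) from 250 bases before to 50 bases after the gene start. Windows were matched for 29 of the 32 genes, all but Hyou1, Manf and Atf6. An ERSE lay in 9 of those 29 (31%): Hspa5, Hsp90b1, Creld2, Pdia6, Calr, Canx, Dnajc3, Syvn1 and Derl3. Among all 32851 windows 39 held one (0.119%), and among the 11276 tested genes with a window 21 did (0.186%). By role it was found in 7 of 14 chaperone genes, 2 of 5 degradation genes, 0 of 3 sensing genes and 0 of 7 genes of the ATF4 group. The stretches below are those of ERSE genes that differed in at least 1 comparison, read 5′ to 3′ on the strand of the gene, with the element in capitals (CCACG reads CGTGG and CCAAT reads ATTGG where the element lies on the other strand).
Hspa5, chr2:34771840-34772089, plus strand: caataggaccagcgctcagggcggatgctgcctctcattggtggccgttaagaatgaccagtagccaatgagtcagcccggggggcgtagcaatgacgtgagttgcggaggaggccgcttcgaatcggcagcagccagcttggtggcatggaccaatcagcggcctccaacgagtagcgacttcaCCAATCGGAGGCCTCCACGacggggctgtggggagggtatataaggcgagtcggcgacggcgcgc
Creld2, chr15:88819500-88819558, plus strand: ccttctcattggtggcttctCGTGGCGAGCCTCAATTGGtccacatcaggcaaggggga
Pdia6, chr12:17266471-17266529, plus strand: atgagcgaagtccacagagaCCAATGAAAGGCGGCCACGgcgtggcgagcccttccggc
Dnajc3, chr14:118937807-118937865, plus strand: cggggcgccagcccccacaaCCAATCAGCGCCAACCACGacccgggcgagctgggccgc

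Only exact matches were counted, so an element with a changed base was not found by the search. The Hspa5 element began 65 bases before the gene start, and those of Creld2, Pdia6 and Dnajc3 began 126, 98 and 105 bases before it. The related element ERSE-II (ATTGG and CCACG with 1 base between) lay in the windows of Herpud1 and Dnajb11, and in 0.0365% of all windows. The core TGATGCAA of the amino acid response element, which ATF4 binds, lay in the windows of Herpud1, Atf3 and Chac1 (3 of 29), against 0.78% of tested genes. Herpud1, the gene of a membrane protein of the degradation complex, held both elements, and Atf3 held the second, so these stretches are shown as well. In them TGATGCAA lies on the other strand and reads TTGCATCA.
Herpud1, ERSE-II, chr8:94386357-94386407, plus strand: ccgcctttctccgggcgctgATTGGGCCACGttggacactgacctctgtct
Herpud1, amino acid response element, chr8:94386297-94386344, plus strand: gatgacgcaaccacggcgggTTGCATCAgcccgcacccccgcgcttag
Atf3, amino acid response element, chr1:191183416-191183463, minus strand: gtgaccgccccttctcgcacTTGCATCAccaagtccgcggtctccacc

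The short part CCACG alone was common, in 23 of 29 genes and 49.8% of tested genes, and overlaps the longer elements. The core TGACGTGG, bound by XBP1 and ATF6, was in 0 of 29 windows and 0.993% of tested genes. The E-box CACGTG, through which the clock activators act, was in 3 of 29 (Calr, Dnajb9 and Derl3) and 11.3% of tested genes. A match describes letters in a window and no binding.

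Levels were compared between genes as CPM per kilobase of exon (GENCODE M21, GRCm38). The folding enzymes led: the protein disulfide isomerase gene P4hb had a mean of 549 over the 16 libraries, the lectin chaperone gene Calr 402 and the ER HSP90 gene Hsp90b1 257 CPM per kilobase. Herpud1 followed at 243. At the other end lay the sensor gene Eif2ak3 (3.31), the degradation gene Derl3 (2.61) and the ATF4 group genes Atf3 (1.98) and Asns (1.85), with the ATF4 gene itself at 66.3 CPM per kilobase. The plot of all genes in all libraries shows how these roles varied.

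**Figure D1:**
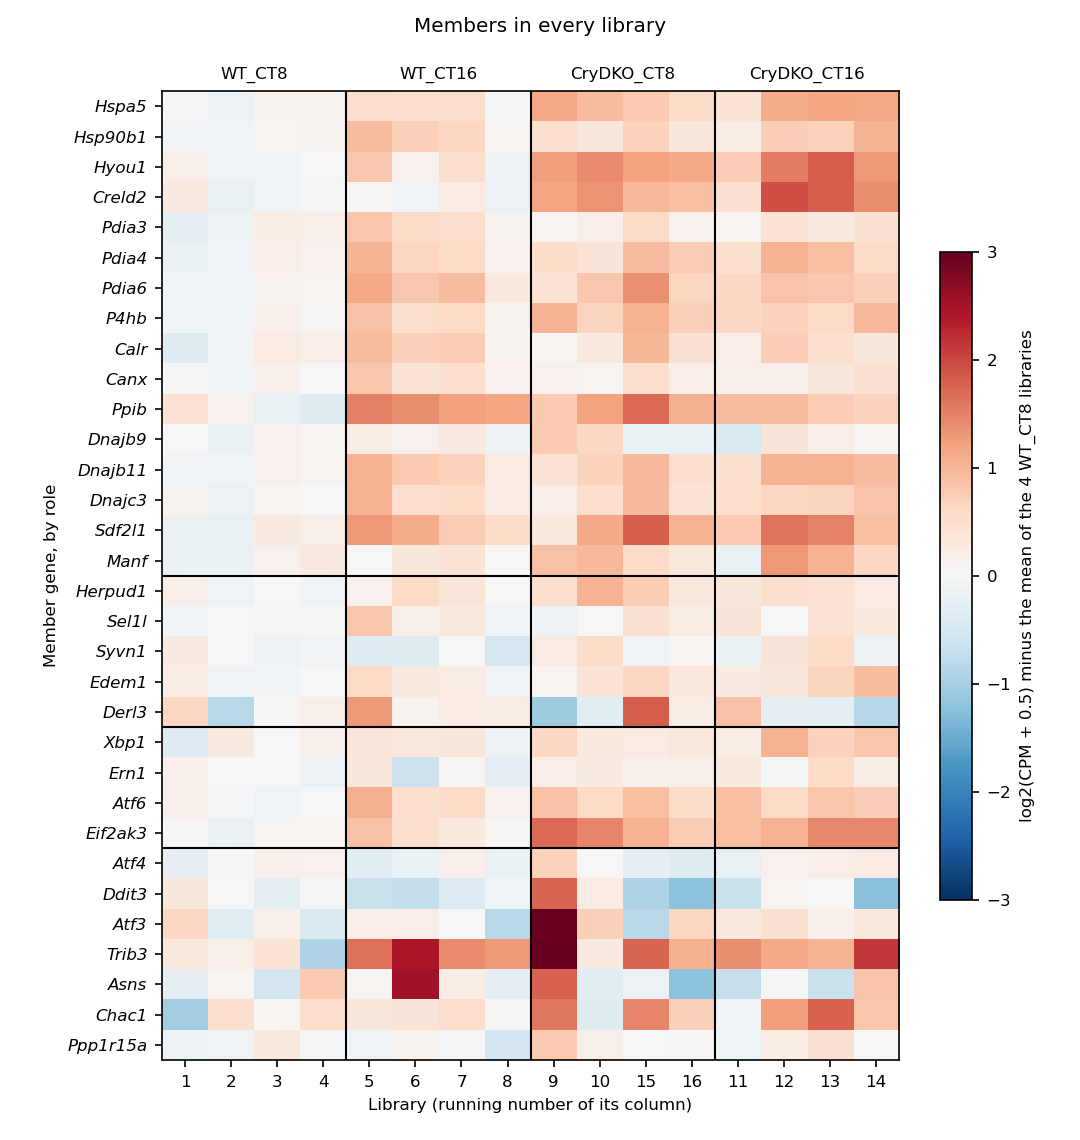
Each cell is log2(CPM + 0.5) of 1 gene in 1 library minus the mean of the 4 WT_CT8 libraries, for 32 genes (rows, by role) and 16 libraries (columns, by group); colours end at 3 in both directions. Library 8 is the palest column of WT_CT16, and library 9 is the darkest of CryDKO_CT8 for Atf3 and Trib3.

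At CT8, 16 of the 32 genes were higher in the libraries labelled CryDKO than in WT, 0 were lower and 16 did not pass, while all 32 log2 changes were positive. The median log2 change was 0.61, against -0.02 over all genes tested. Of all genes tested, 18.7% were higher and 20.3% lower. A gene is called higher or lower where edgeR's quasi-likelihood test over all 16 libraries gave a Benjamini-Hochberg adjusted p under 0.05, and log2 changes are given ± SE. By role, 11 of 16 chaperone and folding genes were higher (median log2 change 0.69), 1 of 5 degradation genes (0.36), 2 of 4 sensing genes (0.55) and 2 of 7 genes of the ATF4 group (0.47). In 16 genes all 4 CryDKO_CT8 libraries lay above all 4 of WT_CT8, as did those of 18.7% of all genes tested, and in 0 all lay below (20.5%). Scaling by library size alone moved the median of all genes to -0.36 and that of the 32 to 0.25. With it 11 of the 16 were higher and 0 lower (Pdia4, Dnajb11, Dnajc3, Manf and Herpud1 no longer passed), 24 log2 changes were positive, and 961 genes of the table were higher and 5127 lower, in place of 2706 and 2943.

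Hspa5, the gene of the chaperone BiP that also holds the sensors inactive, had 221, 198, 242 and 243 CPM in WT_CT8 and 502, 429, 386 and 338 CPM in CryDKO_CT8. Its groups did not overlap, and its level was 1.83-fold higher (log2 change 0.87 ± 0.19, adjusted p = 0.00167). Hyou1, the gene of a large ER chaperone that serves as exchange factor for BiP, read 93.8, 77.7, 79.2 and 83.5 CPM in WT_CT8 and 198, 224, 194 and 185 CPM in CryDKO_CT8. The lowest CryDKO_CT8 library lay far above the highest of WT_CT8, a 2.40-fold difference (log2 change 1.26 ± 0.21, adjusted p = 0.000197). Creld2, which encodes a secretory-pathway protein induced by ER stress, was at 24.4, 17.1, 19.0 and 20.5 CPM in WT_CT8 and at 46.1, 51.8, 40.0 and 38.2 CPM in CryDKO_CT8. Its difference was 2.18-fold (log2 change 1.12 ± 0.23, adjusted p = 0.00105), again with no overlap.

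Among the disulfide isomerases, P4hb ranged from 980.1 to 1171 CPM in WT_CT8 and from 1679.9 to 2168 CPM in CryDKO_CT8 (log2 change 0.87 ± 0.18). Pdia6 read 155, 149.9, 176 and 172 CPM in WT_CT8 and 218, 284, 421 and 254 CPM in CryDKO_CT8 (0.85 ± 0.19), and Pdia4 ranged from 102 to 135 and from 155 to 225 CPM (0.67 ± 0.19). In all 3 the groups did not overlap. Pdia3, the isomerase that works with calnexin and calreticulin, did not pass (0.25 ± 0.18), nor did the genes of those lectins themselves, Calr (0.47 ± 0.22) and Canx (0.24 ± 0.16). Hsp90b1 did not pass either (0.47 ± 0.19, adjusted p = 0.0558), although its 4 CryDKO_CT8 values of 667 to 849 CPM lay above the 491 to 561 CPM of WT_CT8.

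The co-chaperone genes of BiP split in the same way. Dnajb11 (log2 change 0.67 ± 0.17) and Dnajc3 (0.55 ± 0.18), which encode J-domain proteins, and Sdf2l1 (1.17 ± 0.27), the gene of a partner of Dnajb11, were higher, while the J-domain gene Dnajb9 did not pass (0.31 ± 0.21). Sdf2l1 ranged from 14 to 19.9 CPM in WT_CT8 and from 20.8 to 58.5 CPM in CryDKO_CT8, a wide range. Manf, a secreted ER stress protein, was higher at 0.70 ± 0.24, with an adjusted p of 0.0273 that passed the threshold by little: it was lost without WT_CT8 library 1 or 2 or without CryDKO_CT8 library 9 or 10. The call of Dnajc3 was lost without WT_CT8 library 2 or CryDKO_CT8 library 15, when its log2 change was 0.51 or 0.39.

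Ppib, the gene of the ER prolyl isomerase cyclophilin B, rose from 33.0, 26.4, 21 and 18.5 CPM in WT_CT8 to 42.0, 56.6, 79.3 and 51.1 CPM in CryDKO_CT8 (log2 change 1.21 ± 0.19, adjusted p = 0.000104). The groups did not overlap. Of the exon bases of Ppib, 57.6% overlap exons of Snx22 on the opposite strand (GENCODE M21), and no source used here gives the strand setting of the counts. Whether reads in shared bases were counted to one gene, to the other or to neither is therefore not known. The same holds for smaller shares of Hsp90b1 (21.6%), Eif2ak3 (10%), Ddit3 (9.10%) and Manf (7.31%), in part on the same strand.

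**Figure D2:**
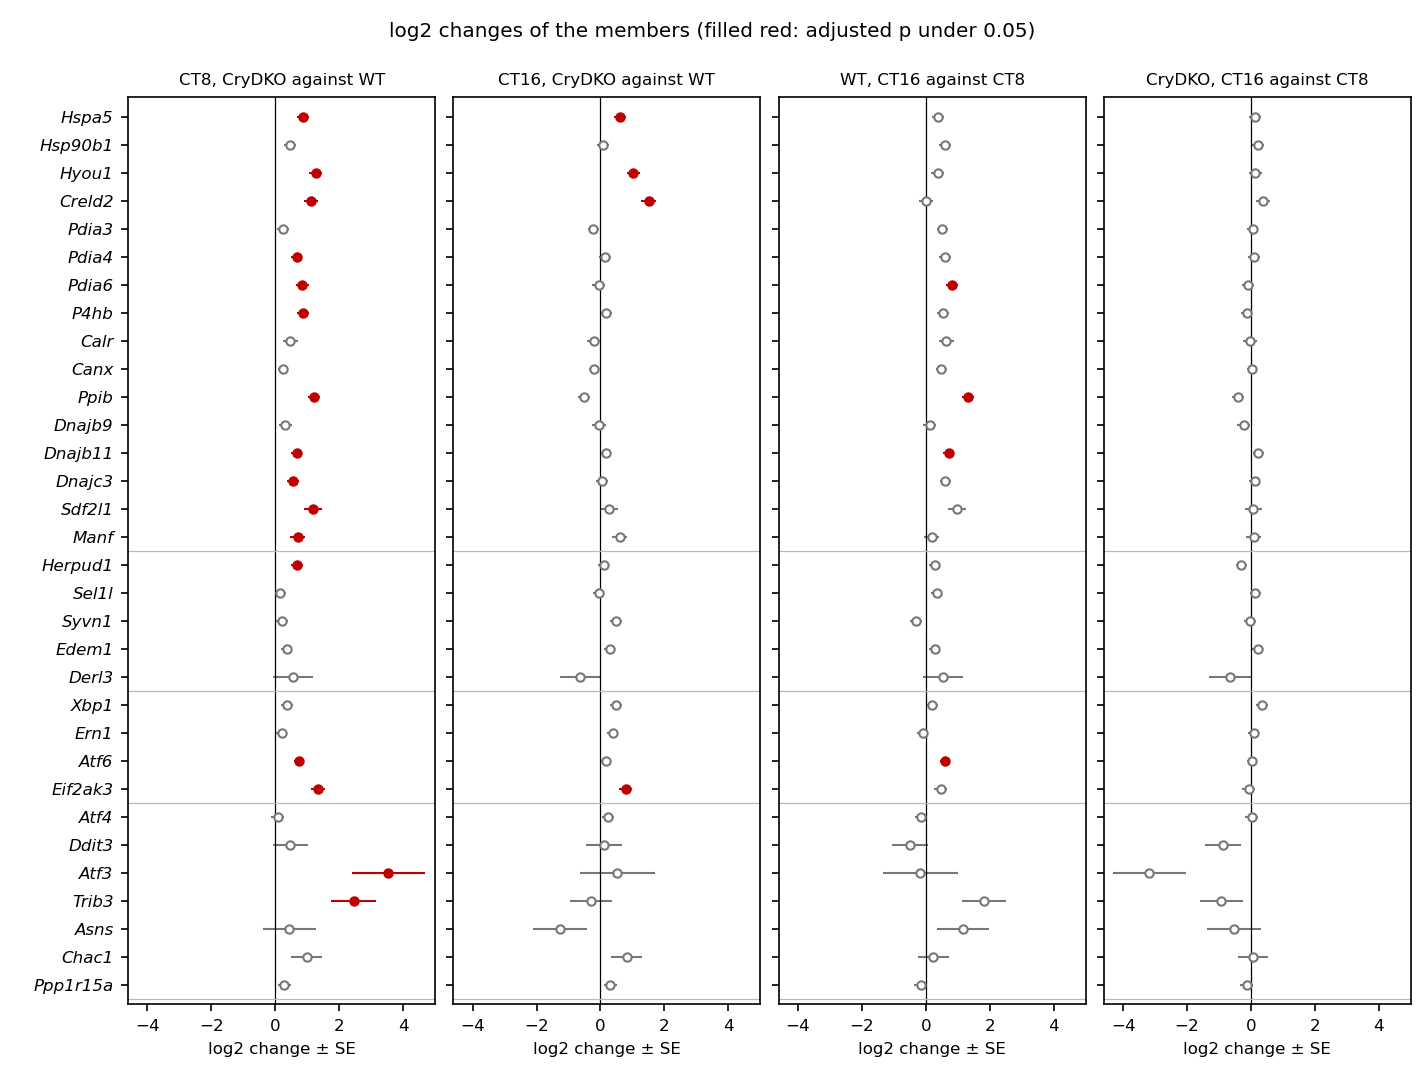
Points are log2 changes of the 32 genes (rows, by role) with their SE as bars in 4 comparisons (panels), filled where the adjusted p was under 0.05. In the panel of genotype at CT8 all 32 points lie right of 0 and 16 are filled, and in the panel of time in CryDKO none is filled.

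Of the degradation genes, Herpud1 was higher at CT8, with 419, 344, 376 and 347 CPM in WT_CT8 and 522, 768, 631 and 462 CPM in CryDKO_CT8 (log2 change 0.68 ± 0.17, adjusted p = 0.00502) and no overlap. The genes of the ubiquitin ligase Syvn1 (0.20 ± 0.18), its partner Sel1l (0.15 ± 0.18) and the mannosidase-like Edem1 (0.36 ± 0.17) did not pass. Derl3, a channel component and the least abundant of the 5, read 4.30, 1.27, 2.73 and 3.00 CPM in WT_CT8 and 1.00, 2.02, 10.5 and 3.17 CPM in CryDKO_CT8. The groups overlapped, and its log2 change of 0.55 ± 0.63 became -0.45 without library 15.

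Of the sensor genes, Eif2ak3, which encodes PERK, differed most. It was at 9.0, 7.55, 9.27 and 9.19 CPM in WT_CT8 and at 29.4, 25.0, 18.6 and 15.3 CPM in CryDKO_CT8, a 2.52-fold difference with no overlap (log2 change 1.34 ± 0.21, adjusted p = 0.000116). Atf6 read 41.4, 35.7, 34.6 and 37.6 CPM against 68.4, 57, 70.6 and 54.3 CPM (0.75 ± 0.16, adjusted p = 0.00163), also without overlap. Ern1, the IRE1 gene, did not pass: its 4 CryDKO_CT8 values, 56.5 to 61.2 CPM, lay just above the highest WT_CT8 value of 56.5 CPM (0.20 ± 0.17), and with library size alone its log2 change was -0.14. Xbp1, whose mRNA IRE1 splices, did not pass (0.36 ± 0.19), with 126 to 201 CPM in WT_CT8 and 198 to 257 CPM in CryDKO_CT8, groups that overlapped.

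Both calls of the ATF4 group at CT8 ended without CryDKO_CT8 library 9. Atf3, a stress-induced transcription factor gene, read 1.95, 0.743, 1.26 and 0.675 CPM in WT_CT8 and 49.2, 2.11, 0.387 and 1.98 CPM in CryDKO_CT8. Only library 9 stood high and the groups overlapped. The fitted log2 change was 3.54 ± 1.15 (adjusted p = 0.0281), and without library 9 it was 0.41 (adjusted p = 0.553). The call also ended without WT_CT8 library 2, 3 or 4. Trib3, the gene of a pseudokinase induced by ATF4 and CHOP, read 4.19, 3.78, 4.57 and 1.54 CPM in WT_CT8 and 53.3, 4.04, 12.3 and 7.48 CPM in CryDKO_CT8, with overlap. Its log2 change of 2.46 ± 0.71 (adjusted p = 0.0159) was 1.20 without library 9 (adjusted p = 0.0568). With only the 2 groups in the fit neither gene passed, although the log2 changes were nearly the same, 3.54 for Atf3 (adjusted p = 0.101) and 2.45 for Trib3 (adjusted p = 0.0614). With limma voom or trend Atf3 had log2 changes of 1.67 and 1.51 that did not pass.

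The other genes of the group did not pass. Ddit3, the gene of the transcription factor CHOP, had 12.7, 10, 8.14 and 9.72 CPM in WT_CT8 and 35.0, 12.0, 5.04 and 4.02 CPM in CryDKO_CT8, where 1 library lay above and 2 below the whole WT_CT8 range. Its log2 change was 0.47 ± 0.55 with library 9 and -0.50 without it. Atf4 itself was at 96.0, 109, 126 and 124 CPM in WT_CT8 and at 184, 112, 95.1 and 87.7 CPM in CryDKO_CT8 (0.07 ± 0.20, and -0.18 without library 9). The asparagine synthetase gene Asns (0.44 ± 0.83), the glutathione-degrading Chac1 (0.99 ± 0.48) and the eIF2 alpha phosphatase subunit gene Ppp1r15a (0.29 ± 0.20) also had their highest CryDKO_CT8 value in library 9, as did 7 of the 7 genes of the group. The same library was the lowest of its group for 7 of the 16 chaperone genes, and library 15 was the highest for 11 of them. The median coefficient of variation within CryDKO_CT8 was 103% for the ATF4 group and 17.2% for the chaperones.

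Library 9 differed in other respects. Of its group it had the highest sums of stellate cell and fibroblast markers (246 CPM), macrophage markers (175 CPM), neutrophil markers (11.1 CPM) and cytosolic chaperones (3868 CPM, with library 10 close at 3807 CPM). Of the lists followed below, other integrated stress response genes (2909 CPM), other stress transducers (693 CPM) and translocation genes (1728 CPM) were also highest in it. So were endothelium (78.7 CPM, library 10 at 78.5 CPM), T and NK cell (1.96 CPM) and pancreas markers (8.85 CPM). Library 9 had the lowest sums of hepatocyte markers (78568 CPM), secreted hepatocyte proteins (218737 CPM), cholangiocyte markers (50.4 CPM) and clock genes (162 CPM). The part of these in its high values was not tested. Without library 9, 14 of the 32 genes were higher at CT8, 13 of them among the 16 of all libraries, as were 16.4% of all genes then tested.

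**Figure D3:**
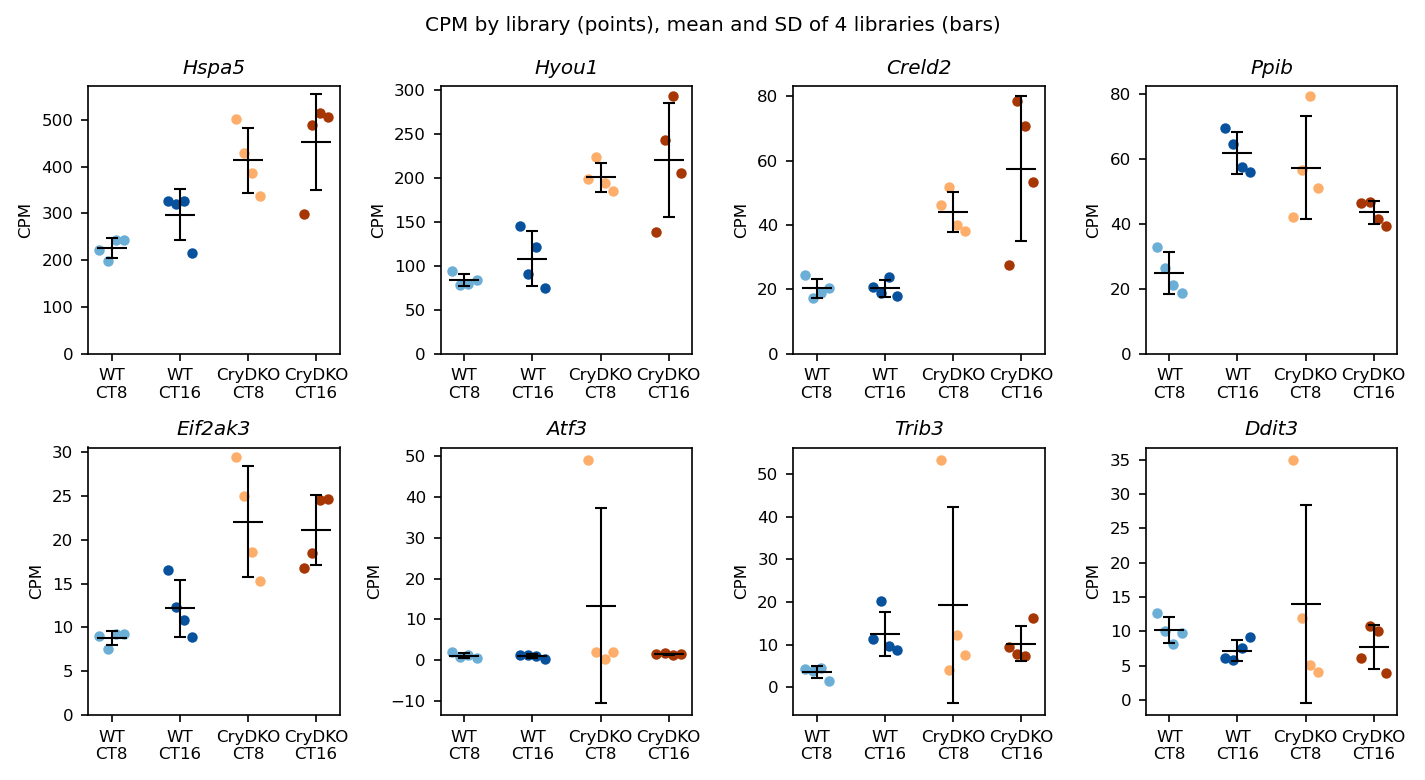
Points are the CPM of 8 genes (panels) in each library, and bars give the mean and SD of the 4 libraries of a group; the SD bar runs below 0 where 1 library is far above the rest. Atf3, Trib3 and Ddit3 each have 1 high point in CryDKO_CT8, at 49.2, 53.3 and 35.0 CPM, whereas the 4 points of Hyou1 there lie between 185 and 224 CPM.

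At CT16 the libraries labelled CryDKO were higher for 4 of the 32 genes, Hspa5, Hyou1, Creld2 and Eif2ak3, and lower for 0, while 9.0% of all genes tested were higher and 9.15% lower, shares that were also smaller than at CT8. The median log2 change was 0.17, with 22 of 32 positive, against -0.01 over all genes. The 4 were also higher at CT8. In 2 genes, Creld2 and Eif2ak3, all 4 CryDKO_CT16 libraries lay above those of WT_CT16 (9.65% of all genes tested), and in 1, Ppib, all lay below (10.2% of all genes tested). With library size alone the median of all genes was -0.16 and that of the 32 was 0.05, with 3 higher and 1 (Ppib) lower. Over all genes 605 were then higher and 1883 lower, in place of 1303 and 1326.

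Creld2 read 20.5, 18.8, 23.8 and 17.9 CPM in WT_CT16 and 27.7, 78.4, 70.8 and 53.3 CPM in CryDKO_CT16, a 2.84-fold difference (log2 change 1.51 ± 0.23, adjusted p = 0.000319). Library 11 lay close to WT_CT16 and the other 3 far above it. Hyou1 read 145, 90.8, 121 and 75.0 CPM against 138, 242, 293 and 206 CPM (1.03 ± 0.21, adjusted p = 0.00243), with library 11 inside the WT_CT16 range. For Eif2ak3 the values were 16.5, 12.3, 10.8 and 8.89 CPM in WT_CT16 and 16.8, 18.5, 24.5 and 24.6 CPM in CryDKO_CT16 (0.80 ± 0.20, adjusted p = 0.0110), so that the groups nearly touched.

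Hspa5 read 327, 319.8, 327 and 215 CPM in WT_CT16 and 299, 488, 514 and 507 CPM in CryDKO_CT16, with library 11 inside the WT range. Its log2 change of 0.60 ± 0.19 (adjusted p = 0.0320) no longer passed with library size alone (0.47), with only the 2 groups in the fit (0.59), without WT_CT16 library 8 (0.47) or without CryDKO_CT16 library 12 (0.57), 13 (0.54) or 14 (0.54). Library 11 was the lowest of its group for 22 of the 32 genes and for 14 of the 16 chaperones, and without it 7 of the 32 were higher, against 7.8% of all genes then tested. Ppib went the other way, with 69.4, 64.4, 57.4 and 55.8 CPM in WT_CT16 and 46.3, 46.7, 41.5 and 39.4 CPM in CryDKO_CT16, but did not pass (-0.51 ± 0.18, adjusted p = 0.0581).

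Most other genes described for CT8 did not pass at CT16. Xbp1 (0.50 ± 0.19, adjusted p = 0.0663), Ern1 (0.38 ± 0.17), Atf6 (0.17 ± 0.16) and Herpud1 (0.10 ± 0.17) did not pass. Nor did Derl3 (-0.64 ± 0.64), Atf4 (0.23 ± 0.20), Ddit3 (0.10 ± 0.56), Atf3 (0.53 ± 1.19) and Trib3 (-0.30 ± 0.67). Atf3 ranged from 0.384 to 1.33 CPM in WT_CT16 and from 1.26 to 1.68 CPM in CryDKO_CT16, with no value near the 49.2 CPM of library 9.

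The comparison of dosing times in WT sets livers dosed at CT16 beside livers dosed at CT8. Without untreated livers or a stated collection time, the hour of the drug and the clock hour at collection cannot be told apart. In WT 4 genes were higher at CT16 than at CT8 and 0 were lower: Ppib (log2 change 1.32 ± 0.19, adjusted p = 0.00875), Pdia6 (0.82 ± 0.19, 0.0397), Dnajb11 (0.72 ± 0.17, 0.0413) and Atf6 (0.61 ± 0.16, 0.0494). Of all genes tested 1.24% were higher and 1.30% lower, and of 5 clock genes outside the 32, 3 were higher and 1 lower. The median log2 change was 0.43, with 26 of 32 positive, against -0.04 over all genes. All 16 chaperone genes had a positive log2 change (median 0.58) while the ATF4 group had 3 of 7 (median -0.14). In 6 genes, Ppib, Pdia6, Dnajb11, Dnajc3, Sdf2l1 and Trib3, the WT_CT16 libraries lay above all of WT_CT8, against 5.52% of all genes tested, and in 0 they lay below (7.12%). With library size alone the median of all genes was -0.29 and that of the 32 was 0.16, Ppib alone was higher, and over all genes 18 were higher and 354 lower, in place of 179 and 188.

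The count of 4 turned on single libraries. The counts over all genes moved with the same libraries. Without WT_CT16 library 8, 15 of the 32 genes were higher, and so were 1890 of all 14696 genes then tested (12.9%). Without WT_CT8 library 4 or WT_CT16 library 5 both counts were 0, while without WT_CT8 library 1, 2 or 3 or WT_CT16 library 6 or 7 it was 1 of the 32 and 1 to 51 of all genes. Without CryDKO_CT8 library 9, which enters this comparison only through the shared estimate of spread, it was 7 of the 32 and 388 of all genes (2.61%). Library 8 was the lowest of WT_CT16 for 15 of 16 chaperone genes and library 5 the highest for 12. For Pdia6 the WT_CT16 values were 356, 286, 307 and 201 CPM, in the order of libraries 5 to 8, and for Atf6 they were 79.0, 52.1, 55.8 and 40.8 CPM, the last inside the WT_CT8 range of 34.6 to 41.4 CPM. Trib3, at 11.4, 20.1, 9.70 and 8.82 CPM in WT_CT16, was above all of WT_CT8 but did not pass (1.83 ± 0.70, adjusted p = 0.124).

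In the libraries labelled CryDKO 0 of the 32 genes differed between CT16 and CT8, and 0% of all genes tested were called. At an unadjusted p under 0.05 there were 2 of the 32 and 938 of all genes, and DESeq2, limma voom and limma trend called 14, 0 and 1 genes of the table and 0 of the 32. The median log2 change was 0.03, with 18 of 32 positive. In 0 genes did CryDKO_CT16 lie wholly above CryDKO_CT8 (1.17% of all genes tested) or wholly below it (1.28%). Hspa5 (0.13 ± 0.19), Xbp1 (0.34 ± 0.18), Ern1 (0.09 ± 0.17), Eif2ak3 (-0.07 ± 0.20), Derl3 (-0.65 ± 0.65) and Atf4 (0.02 ± 0.20) had small log2 changes or wide errors. Atf3 (-3.18 ± 1.14) and Ddit3 (-0.87 ± 0.56) had their highest CryDKO_CT8 value in library 9, without which the log2 change of Ddit3 was 0.12.

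The comparison of times in WT and that of genotype at CT8 share the 4 WT_CT8 libraries, so their likeness is no result, and values are given side by side only. Ppib had log2 changes of 1.32 and 1.21, Pdia6 of 0.82 and 0.85, Dnajb11 of 0.72 and 0.67, and Atf6 of 0.61 and 0.75. Hyou1 had 0.37 and 1.26, Creld2 0.00 and 1.12, Hspa5 0.40 and 0.87, and Eif2ak3 0.47 and 1.34. The first 4 genes are those that passed between times in WT, and the other 4 are those that passed by genotype at CT16. The first 4 had log2 changes of like size in both comparisons, and the other 4 had larger ones by genotype. That contrast follows in part from how the genes were picked, and it was not tested. As means, Dnajb11 averaged 58.1 ± 4.81 (SD, n = 4) in WT_CT8, 95.7 ± 21.1 in WT_CT16, 92.3 ± 16.1 in CryDKO_CT8 and 108 ± 18.7 in CryDKO_CT16. Creld2 averaged 20.2 ± 3.08, 20.2 ± 2.63, 44.0 ± 6.18 and 57.5 ± 22.5 CPM in the same order.

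Whether the genotype difference itself depended on time was tested as an interaction. Ppib passed (log2 interaction -1.72 ± 0.26, adjusted p = 0.0260), 1 of 6 genes of the table (0.0414% of all genes tested). Its difference by genotype was 1.21 at CT8 and -0.51 at CT16. The limit from the exon bases it shares with Snx22 applies here too. The other 31 did not pass, with 6 of 32 log2 interactions positive and a median of -0.46 against 0.01 over all genes. A genotype difference that changed with time was thus shown by this test for Ppib alone, whose estimate changed sign. That call ended with library size alone (-1.48, adjusted p = 0.0943) and without WT_CT8 library 2 or 4, WT_CT16 library 5 or CryDKO_CT16 library 12 or 13. Without WT_CT16 library 8 the interaction passed in 4 of the 32, all negative, and in 568 genes of the table, 275 positive and 293 negative of 14696 tested.

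Other genes of the same pathways were followed by lists, whose counts at CT8 stand beside the 18.7% of all genes tested that were higher and the 20.3% that were lower. At CT8, 16 of 18 genes of N-glycosylation and glycan trimming were higher and 0 lower (median log2 change 0.84), among them the oligosaccharyltransferase gene Ddost (0.99 ± 0.15), the glucosidase genes Prkcsh (1.08 ± 0.17) and Mogs (0.90 ± 0.15). Of 18 translocation genes 7 were higher and 3 lower (0.17), with the channel gene Sec61a1 at 1.45 ± 0.21 and the receptor subunit genes Srprb (1.04 ± 0.17) and Srpr (0.88 ± 0.17) of the signal recognition particle. Of 19 tested other folding factors 9 were higher and 1 lower (0.44): the ER reductase gene Dnajc10 stood at -1.96 ± 0.18, and Cnpy3 (0.84 ± 0.13) and Erp29 (0.81 ± 0.15) were higher. Of 20 other degradation factors 9 were higher and 1 lower (0.36), including the ubiquitin-conjugating Ube2g2 (1.24 ± 0.21), the lectin gene Os9 (0.93 ± 0.19) and the segregase gene Vcp (0.87 ± 0.19).

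Other stress transducers were higher in 8 of 11 and lower in 0 (median 0.63), among them Atf6b, the relative of Atf6 (0.91 ± 0.12), Wfs1 (1.06 ± 0.17) and Rtcb, the ligase of Xbp1 splicing (0.78 ± 0.14). Of 29 tested other genes of the integrated stress response 22 were higher and 0 lower (0.85). The list summed to 1566 to 1725 CPM in WT_CT8 and to 2408 to 2909 CPM in CryDKO_CT8, highest in library 9. The lowest adjusted p of this list belonged to the tRNA synthetase genes Tars (1.09 ± 0.18), Iars (0.85 ± 0.15) and Wars (0.80 ± 0.15), while its log2 changes reached 3.84. Of 6 genes of eIF2 alpha and of factors that act on it or with it, 1, Eif2b5, was higher (0.79 ± 0.14) and 1, the kinase gene Eif2ak2, lower (-0.45 ± 0.16). Cytosolic chaperones were higher in 3 of 14 (Hsp90ab1, Hspa8 and Hspd1) and lower in 0 (0.28), a share near that of all genes tested. Secreted hepatocyte proteins, clients of the ER, were higher in 19 of 25 and lower in 0 (0.86), with albumin (Alb) at 1.21 ± 0.23 and Hpx at 1.25 ± 0.25. With library size alone the medians of the translocation and cytosolic chaperone lists were -0.18 and -0.06.

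Some markers of cell types were higher at CT8 too, beside the 18.7% of all genes tested: 4 of 5 hepatocyte markers were higher (summed 38008 to 43584 CPM in WT_CT8 and 78568 to 111495 CPM in CryDKO_CT8), and so were 4 of 8 stellate cell and fibroblast markers (99.2 to 139 and 125 to 246 CPM), 2 of 9 macrophage markers (60.1 to 82.5 and 72.4 to 175 CPM) and 2 of 5 cholangiocyte markers (25.8 to 91.7 and 50.4 to 146 CPM). The macrophage count was near the share of all genes tested, and 7 of the 9 did not pass. Of the 3 tested plasma and B cell markers 1, Igkc, was higher (2.85 to 7.09 and 4.04 to 15.6 CPM over the list), 0 of 6 endothelium and 0 of 4 neutrophil markers were, and T and NK cell genes were too low to test. The share of all genes tested at CT16 was 9.0% higher and 9.15% lower. Higher there were 5 of 9 macrophage (28.7 to 101 CPM in WT_CT16 and 113 to 190.1 CPM in CryDKO_CT16), 2 of 8 stellate, 2 of 5 hepatocyte and 1 of 6 endothelium markers, with 1 of 5 cholangiocyte markers higher and 1 lower, and 0 of 3 plasma and B cell and 0 of 4 neutrophil markers. Between times in WT, beside 1.24% of all genes tested, 1 hepatocyte marker, Cps1, was higher and 0 of the others passed. The part of these shifts in the differences of the 32 genes was not tested.

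**Figure D4:**
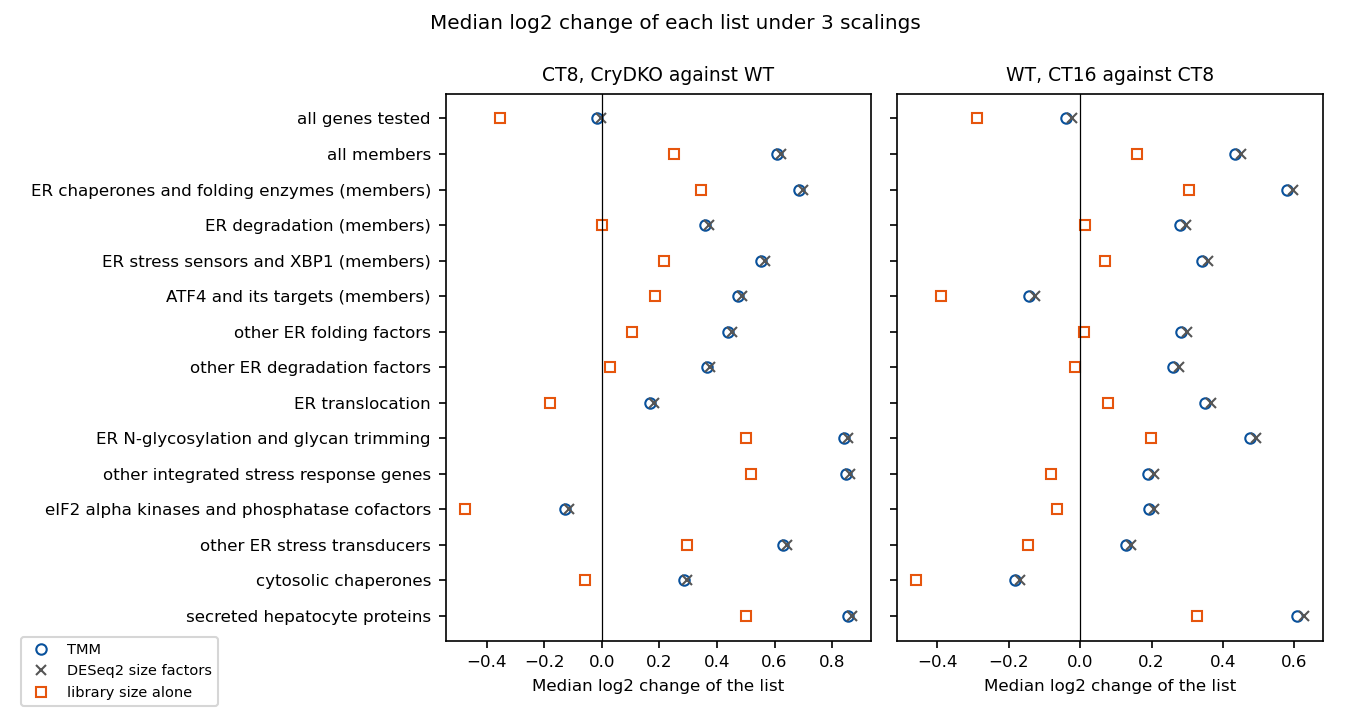
Each row is a list and each point its median log2 change under 1 of 3 scalings of the libraries, for genotype at CT8 (left) and time in WT (right). TMM and DESeq2 size factors give nearly the same medians, and library size alone moves every list to the left together with all genes tested, from -0.02 to -0.36 at CT8.

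At CT16, where 9.0% of all genes tested were higher and 9.15% lower, fewer genes of most lists passed than at CT8, as over all genes. Of the other integrated stress response genes 11 of 29 were higher and 0 lower (median 0.58), with the amino acid transporter gene Slc7a5 at 1.79 ± 0.26, Tars at 1.05 ± 0.18 and Wars at 0.72 ± 0.15. Dnajc10 was again low (-2.06 ± 0.18), as the 1 of 19 folding factors that was lower, beside 3 higher. N-glycosylation had 4 of 18 higher, among them Alg2 (0.96 ± 0.22), translocation 4 of 18, other transducers 4 of 11 with Atf6b at 1.01 ± 0.12, other degradation factors 1 higher (Ube2g2) and 1 lower (Derl2) of 20, and secreted proteins 3 of 25. Of the cytosolic chaperones 1 of 14, Hspb1, was higher, and of the eIF2 alpha genes 1 of 6, Eif2s1, was lower (-0.44 ± 0.14). In WT between times, where 1.24% of all genes tested were higher, 4 of 18 N-glycosylation genes were higher, including Stt3a (0.87 ± 0.18), along with 2 of 18 translocation genes, 1 of 11 transducers (Rtcb), 1 of 25 secreted proteins (Plg), 1 of 19 folding factors (Sdf2), 1 of 20 degradation factors (Rnf139), 0 of 29 integrated stress response genes, 0 of 6 eIF2 alpha genes and 0 of 14 cytosolic chaperones. Between times in CryDKO and in the interaction 0 genes of these lists passed.

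The presence of an ERSE was set beside these calls as a description. At CT8, 4 of the 9 genes with an ERSE in the window were higher (Hspa5, Creld2, Pdia6 and Dnajc3), as were 9 of the 20 with a window and none. Of all genes tested 18.7% were higher and 20.3% lower there. Of the 12 other tested genes with an ERSE 2 were higher and 2 lower. At CT16, 2 of the 9 (Hspa5 and Creld2) and 1 of the 20 (Eif2ak3) were higher, beside 9.0% of all genes tested. Between times in WT, 1 of the 9 (Pdia6) and 2 of the 20 (Ppib and Dnajb11) were higher, beside 1.24%.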

How the data were processed

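Counts of poly(A) RNA reads (150 bp pairs, Illumina) from 16 liver libraries were used. Per the submitters' processing notes, FastQC, Trimmomatic 0.35, STAR 2.5.3, HTSeq 1.99.2 and DESeq2 were used with build GRCm39 (mm39); no source used here gives annotation or strand setting. The authors deposited raw read counts for 40840 genes. They also deposited normalized signal values for 19592 genes, which equal the counts over 1 size factor per library; 4 of its CryDKO_CT8 columns are renumbered within the group. Columns give the group and a running number.

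In R 4.3.3, edgeR 4.0.16 was run on the counts: filterByExpr, TMM, a robust quasi-likelihood fit of all 16 libraries with 1 coefficient per group, and two-sided tests in 5 comparisons, adjusted by Benjamini-Hochberg over 14484 genes. The SE is |log2 change| / sqrt(F). Library totals were 18083916 to 29934138 reads. Counting error depends on the reads of each gene, which were only 7 for Atf3 in CryDKO_CT8 library 15. Alternatives used DESeq2 1.42.0, limma 3.58.1, other scalings and filters, and each library left out. Figures used Python 3.11.15 and matplotlib 3.10.9.

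Genes were named by a rule: all that passed in at least 1 comparison, always Hspa5, Xbp1, Atf6, Ern1, Eif2ak3, Atf4, Ddit3 and Derl3, and of each other list up to 3 with the lowest adjusted p; others by count. Other members named with values, Alb, and the Herpud1 and Atf3 sequences were added after values were seen. Members and lists were chosen with earlier results of these data known. Protein sequences were not used here.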

Additional observations from a re-analysis of the deposited data

Results flagged for a closer look

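Of 128 sets of 4 values (32 genes in 4 groups), 11 held a value far from the other 3 by Dixon's criterion, where chance gives about 1 in 20. In CryDKO_CT8 library 9 these were high values of Atf3 (49.2 CPM), Trib3 (53.3 CPM), Asns (10.3 CPM) and Xbp1 (257 CPM). In WT_CT16 library 8 they were low values of Hspa5 (215 CPM) and Xbp1 (149.9 CPM). The others were Hspa5 in CryDKO_CT16 library 11 (299 CPM, low), Derl3 in WT_CT16 library 5 (7.26 CPM, high), Asns in WT_CT16 library 6 (17.8 CPM, high), Eif2ak3 in WT_CT8 library 2 (7.55 CPM, low) and Ppp1r15a in WT_CT8 library 3 (13.8 CPM, high).

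The difference by genotype differed between CT8 and CT16 for Ppib, with a log2 interaction of -1.72.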

How the results depend on the processing

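No paired analysis was possible because the columns carry a running number and no replicate number. Of 25 log2 changes that passed, 12 passed in every alternative and 0 reversed; over 623 fits 67 lost the call. The cause was not tested where results moved. Times in WT (4 of the 32 genes, 367 of all): DESeq2 called 13 and 1546, limma trend 1 and 118, library size alone 1 of the 32, the 2 groups alone 7 and 712, limma voom 955 and no low count filter 663 of all; with 1 library left out, 0 to 15 and 0 to 3580. Times in CryDKO (0 of all): DESeq2 14, limma trend 1, no filter 2, 1 library left out 0 to 3. Genotype at CT8: 1 library left out gave 13 to 18 of the 32 and 4274 to 6112 of all; at CT16, 3 to 7 and 1821 to 2742. Interaction (1 and 6): library size alone 0 and 0, DESeq2 134, limma voom 1, limma trend 10, no filter 30 and a mean of at least 50 reads 1 of all; 1 library left out 0 to 4 and 0 to 568.

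Reversals concerned values that did not pass. With library size alone they were Xbp1 in WT times (-0.060), Atf6 (-0.024) and Atf4 (-0.070) in CryDKO times, Ern1 (-0.14) and Atf4 (-0.24) at CT8 and Ddit3 at CT16 (-0.060). With a mean of at least 50 reads Atf4 in CryDKO times was -0.0029. With limma voom and trend Ddit3 was -0.0051 and -0.042 at CT8 and 0.021 and 0.052 in the interaction. With 1 library left out the ranges were, in WT times, Ern1 -0.28 to 0.059; in CryDKO times, Derl3 -1.21 to 0.36, Ern1 -0.038 to 0.18, Atf6 -0.032 to 0.094, Eif2ak3 -0.21 to 0.10, Atf4 -0.10 to 0.30, Ddit3 -1.18 to 0.12; in genotype at CT8, Derl3 -0.45 to 0.92, Atf4 -0.18 to 0.20, Ddit3 -0.50 to 0.79; in genotype at CT16, Ddit3 -0.11 to 0.32; in the interaction, Xbp1 -0.0085 to 0.27, Ddit3 -0.69 to 0.58.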
